A study of Homo sapiens with 16 samples.

Results

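The first step of a HindIII digestion series in nuclei, from 0.25 h to 1 h, was examined in K562, an established human leukaemia cell line. The libraries were chosen by the digestion time in their labels, which gave 8 of the 16 files and, after the 2 sequencing runs of each replicate were added, 4 of 8 libraries. The 0.25 h group held replicates 1 and 2 of K562 nuclei digested for 0.25 h, and the 1 h group held replicates 1 and 2 of K562 nuclei digested for 1 h. Cells of both groups were fixed with formaldehyde, digested with the same enzyme and ligated in nuclei, and they differed in the labels by incubation time alone. The series text says that short incubations were meant to reach the domain boundaries with the most open chromatin, and the comparison asks what differed between the first pair of times. The labels do not say whether replicates came from separate cultures, so p-values measure the spread between these samples, which may be technical.

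In Hi-C, a restriction enzyme cuts fixed chromatin, the ends are marked and joined to neighbouring ends, and the joined pairs are sequenced. Each pair is a contact between the genomic intervals, called bins, that hold its ends. A contact whose ends both lie in one bin is called a self contact here. It can come from a true short-range ligation, or from undigested or re-joined DNA, and the deposited values do not separate these. Contact frequency falls with genomic distance, a relation called distance decay. On a larger scale, chromosomes divide into active and inactive compartments that prefer contacts with their own kind, and on a smaller scale into domains whose boundaries few contacts cross, a property measured as insulation.

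The contacts recovered from the deposited values numbered 126175113 in replicate 1 and 71696245 in replicate 2 at 0.25 h. At 1 h they numbered 134133654 in replicate 1 and 92139516 in replicate 2, so the 0.25 h library of replicate 2 was the shallowest. The widest 95% Wilson interval of a genome-wide share reached 0.0112 percentage points to either side. Such intervals cover counting error only and leave out the spread between libraries. They also take each contact as a separate molecule, which was not tested. As a check of the cell line, the pair of chromosomes 9 and 22, which are fused in K562, had rank 2 among all chromosome pairs by trans contacts over expectation in all 4 libraries. With 2 libraries against 2, an exact two-sided permutation test cannot give a p below 0.333, so single values tested this way could not pass a threshold, and their differences are given beside the spread of the libraries.

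Self contacts were more frequent at 0.25 h. Inside 100 kb bins they made up 37.8% of cis contacts in replicate 1 and 40.9% in replicate 2 at 0.25 h. At 1 h they made up 36.7% in each replicate. Both 0.25 h libraries lay above both 1 h libraries, by 2.72 percentage points between the means (39.4% ± 2.19 against 36.7% ± 0.00445, SD, n = 2, exact permutation p = 0.333). The 0.25 h library of replicate 2 stood apart from the other 3. The difference was 1.18 percentage points within replicate 1 and 4.27 within replicate 2.

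The difference was larger in smaller bins. Inside 50 kb bins, which exist for the first run, the self share of cis contacts was 31.5% and 35.1% at 0.25 h against 30.3% and 30.2% at 1 h. Inside 20 kb bins, which exist for the second run, it was 22.5% and 26.9% at 0.25 h against 21.01% and 21.5% at 1 h. The difference of means was 3.03 percentage points at 50 kb and 3.43 at 20 kb, and the groups did not overlap at either size. Because each size comes from its own sequencing run, bin size and run cannot be told apart between 20 kb and 50 kb. At 100 kb, where both runs have a value, the runs gave like values, and 0.25 h replicate 1 had a self share of 38.0% from run 1 and 37.8% from run 2.

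**Figure D1:**
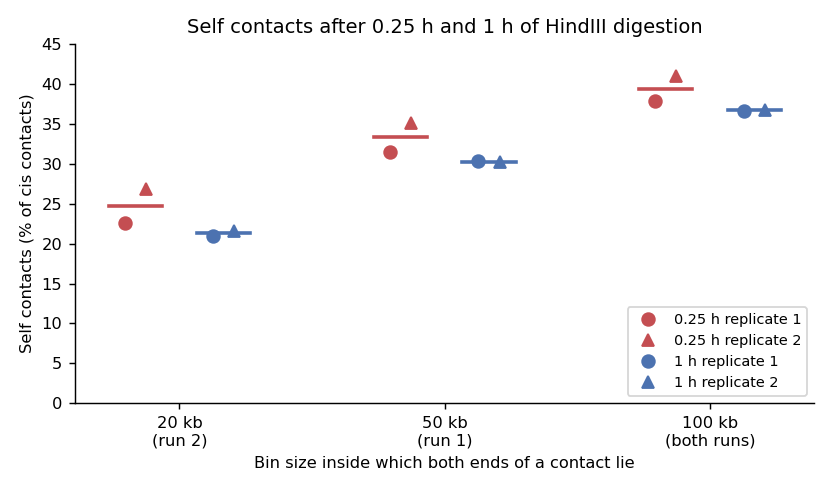
Self contacts as a percentage of cis contacts, for contacts inside 20 kb bins (second run), 50 kb bins (first run) and 100 kb bins (both runs). Circles are replicate 1, triangles replicate 2 and horizontal lines the mean of 2 libraries. Both 0.25 h libraries lie above both 1 h libraries at each size, and 0.25 h replicate 2 is highest, at 26.9%, 35.1% and 40.9%.

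The cis share, the percentage of all contacts that join bins of one chromosome, was 90.4% and 90.2% at 0.25 h and 89.9% and 89.6% at 1 h. It was higher at 0.25 h by 0.568 percentage points, with no overlap (exact permutation p = 0.333). Without self contacts the cis share was 85.4% and 84.5% at 0.25 h against 84.9% and 84.6% at 1 h, and the groups overlapped. The separation in cis share was therefore not seen among contacts between different 100 kb bins.

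The excess of self contacts was spread over the genome. For each 100 kb bin, self contacts were divided by all its other contacts on a log2 scale and compared by limma, a linear model with variances shared across bins and over all 8 libraries. None of 27756 bins passed an adjusted p of 0.05 (0%), while 11306 (40.7%) had an unadjusted p under 0.05, of which 11265 (40.6%) were higher and 41 (0.148%) lower at 0.25 h. In 18850 bins (67.9%) both 0.25 h libraries lay above both 1 h libraries, and in 541 bins (1.95%) both lay below. The median difference was 0.16 (log2), and it was 0.08 without 0.25 h replicate 2 and 0.23 without 0.25 h replicate 1. The call depended on 1 library: without 0.25 h replicate 1, 18268 bins passed the adjusted threshold, and without 0.25 h replicate 2, 0 did.

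The 3 bins with the lowest p lay beyond the 95th percentile of all bins (0.36), so they do not show the usual size. In the bin chr2:66600001-66700000 (hg19, on 2p) self contacts were 20.8% and 22.9% of the bin's contacts at 0.25 h against 17.3% and 17.6% at 1 h. In chr11:14600001-14700000 (11p) they were 19.6% and 22.8% against 16.3% in each 1 h library. In chr1:226500001-226600000 (1q) they were 24.4% and 30.3% against 20.1% and 20.8%. The groups were apart in each, with log2 differences of 0.40, 0.46 and 0.55, and all had an adjusted p of 0.0547 by limma, which is not a call.

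All large regions shared the direction. Over all used bins, self contacts were 20.6% and 22.7% of a bin's contacts at 0.25 h and 19.7% at 1 h in each replicate. In each of the 41 chromosome arms examined, both 0.25 h libraries lay above both 1 h libraries, and the difference of means ran from 1.71 percentage points on 4q to 4.06 on 19p. The 3 largest differences were on 19p, 19q (3.29) and 22q (2.70), and the 3 smallest on 4q, 3q (1.74) and 6q (1.77). On 19p the self percentage was 31.7% and 37.2% at 0.25 h against 29.9% and 30.8% at 1 h. On 4q it was 19.2% and 20.9% against 18.4% and 18.3%.

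Self contacts were higher at 0.25 h on every chromosome. By limma on log2 of self over other cis contacts, all 23 chromosomes were called higher at 0.25 h (100%), with differences from 0.16 on chr4 to 0.25 on chr19 and adjusted p from 0.0273 to 0.0415. Chr19, the chromosome densest in protein-coding genes, had a self share of cis contacts of 51.5% and 57.6% at 0.25 h against 49.7% and 50.7% at 1 h. Chr22 had 48.1% and 52.6% against 46.5% and 46.4%. Chr17 had 44.0% and 47.8% against 42.6% in each 1 h library. Chr4, with few genes for its length, had 34.9% and 37.7% against 33.8% in each. Chr19, chr22 and chr17 had the 3 largest log2 differences, and chr4, chr3 and chr6 the 3 smallest. This order rests on 0.25 h replicate 2: without it the difference on chr19 was 0.08 in place of 0.25 and ranked 8, with chr22 (0.09), chr17 (0.08) and chr15 (0.08) largest and chr13 (0.07) smallest.

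These calls rest on a shift that all chromosomes of a library share, so the 23 are not independent. The fit gave each chromosome the same SE (0.0754) with 92 degrees of freedom, pooled over chromosomes as if they were independent. Each adjusted p from 0.0273 to 0.0415 is therefore smaller than the 8 libraries alone would give. With the 0.25 h and 1 h libraries fitted alone, none was called (adjusted p = 0.136 for all), and with the replicate number as a block none was called either (adjusted p = 0.0621 to 0.0631). When each library was first centred on its median chromosome, 0 of 23 passed by limma and 1 had an unadjusted p under 0.05, chr22 (log2 difference 0.05, adjusted p = 0.384). Across the 23 chromosomes the log2 difference had a Spearman's rho of 0.709 with gene density, given as a description because all points come from the same 4 libraries. This value includes 0.25 h replicate 2, on which the order of the chromosomes rests. Chr11 and chr1, of rank 5 and 6 in gene density, ranked 15 and 14 in the difference. Gene numbers are those of a later assembly, counted over whole chromosomes.

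Compartments, chromosome ends and boundaries differed little in this respect. Bins were put in class 1 or class 2, the class with more and with fewer contacts to chromosomes 16, 17, 19, 20 and 22 relative to 4, 5, 13 and X, using only the 3 h and 12 h libraries (by an eigenvector of the contact map of each chromosome). In class 1 bins, self contacts were 21.8% and 23.7% at 0.25 h against 20.8% and 20.5% at 1 h. In class 2 bins they were 19.6% and 21.6% against 18.7% and 18.8%. Bins within 2 Mb of a chromosome end had 21.7% and 24.0% against 20.6% and 20.4%. Bins beside the longest unmapped stretch of a chromosome, which mostly lie around the centromere, had the highest levels, at 29.1% and 32.7% against 27.9% and 28.5%. Bins at domain boundaries had 19.8% and 21.7% against 18.9% and 18.7%. In each of these 5 groups the 0.25 h libraries lay above the 1 h libraries.

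Bins that hold more self contacts at the later times also differed more, in percentage points. The 27756 bins were divided into 10 equal groups by their self contacts in the 3 h and 12 h libraries. In the lowest group, self contacts were 10.9% and 11.9% at 0.25 h against 10.4% and 10.3% at 1 h. In the highest group they were 30.7% and 33.4% against 29.4% and 29.3%. On the log2 scale of self over other contacts the difference was 0.14 in the lowest group and 0.18 in the highest, with no overlap in any of the 10.

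Relative to the median bin of each library, no bin was called by limma (0 of 27756), and 4336 (15.6%) had an unadjusted p under 0.05, 1985 (7.15%) higher and 2351 (8.47%) lower at 0.25 h. The 3 bins with the lowest p were all lower at 0.25 h. The bin chr16:84300001-84400000 (16q) held few self contacts, 66 and 38 at 0.25 h and 110 and 68 at 1 h, which is 3.75% and 4.06% of its contacts against 5.37% and 5.08%. The bin chr7:53900001-54000000 (7p) had 10.1% and 10.4% against 11.6% and 11.4%. The bin chr10:32300001-32400000 (10p) had 10.98% and 10.8% against 13.1% and 12.7%. They ran against the genome, since their self percentage was lower at 0.25 h while that of the median bin was higher. The adjusted p was 0.253 for each by limma, so they are values and not calls.

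Coverage, the share of contacts between different bins that each region received, was lower on chr19 at 0.25 h. Chr19 received 0.809% and 0.799% of off-diagonal contacts at 0.25 h against 0.831% and 0.833% at 1 h, a log2 difference of -0.05 (SE 0.0073), and it was the 1 chromosome of 23 called by limma (4.35%, adjusted p = 0.0105). With self contacts counted in, the difference on chr19 was 0.00677, without a call. Chr22 received 0.636% and 0.632% against 0.654% and 0.657%, and chr16 received 1.83% and 1.80% against 1.86% and 1.87%. For both the groups were apart, with adjusted p of 0.0684 and 0.0548 by limma. The libraries did not overlap on 11 chromosomes that were lower (47.8%) and 6 that were higher (26.1%). The 3 highest were chr4 (log2 difference 0.02), chr6 (0.01) and chr2 (0.01). Chr4 received 7.98% and 7.99% at 0.25 h against 7.90% and 7.86% at 1 h. With the 0.25 h and 1 h libraries fitted alone, 7 chromosomes passed, 6 lower and 1 higher. Leaving out 1 h replicate 1 or 1 h replicate 2 from the fit of 8 libraries gave 0 calls, and leaving out 0.25 h replicate 1 gave 4.

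**Figure D2:**
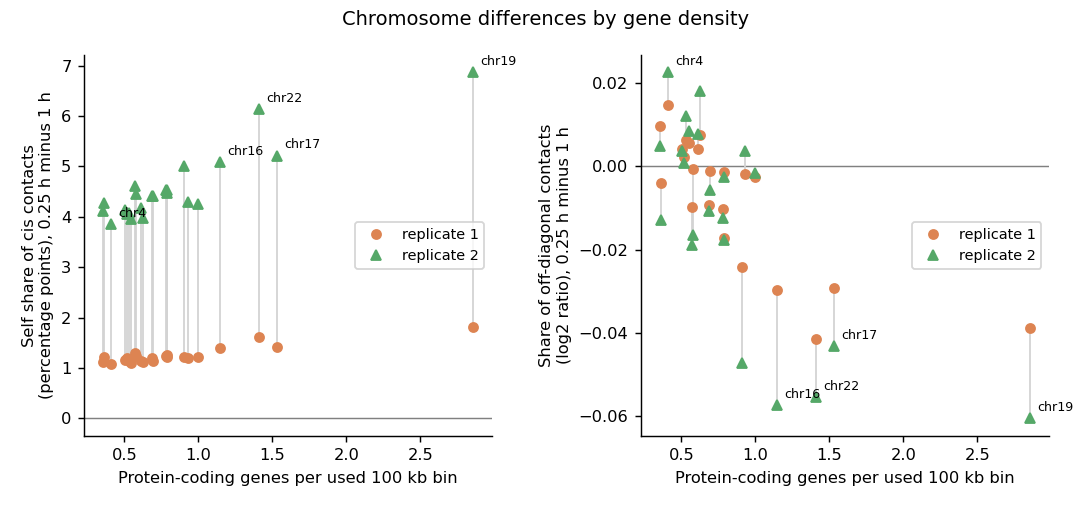
Difference between 0.25 h and 1 h on 23 chromosomes against protein-coding genes per used 100 kb bin, for the self share of cis contacts (left, percentage points) and the share of all off-diagonal contacts (right, log2 ratio). Circles are replicate 1, triangles replicate 2, and grey lines join the replicates. Chr19 is highest on the left, at 1.81 and 6.88 percentage points, and has the lowest mean on the right, -0.05.

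Chromosomes 16, 17, 19, 20 and 22, a set that holds the 4 densest in genes and chr20 (rank 7), together received 6.21% and 6.14% of off-diagonal contacts at 0.25 h and 6.35% and 6.37% at 1 h, with no overlap. Chromosomes 4, 5, 13 and X, a set of ranks 21, 19, 23 and 15 that leaves out chr18 (rank 22), received 22.3% and 22.2% against 22.2% and 22.1%, with overlap. Within each replicate this set was higher at 0.25 h. Chromosome ends received 1.40% and 1.38% against 1.42% in each 1 h library. Class 1 bins received 46.7% and 47.7% against 47.1% and 47.4%, and there the groups overlapped.

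By limma on single bins, coverage gave 0 calls in 27756 bins (0%), and 2548 (9.18%) had an unadjusted p under 0.05, 771 (2.78%) higher and 1777 (6.4%) lower at 0.25 h. With median-of-ratios scaling the split was 1311 higher and 1265 lower. Same-numbered replicates deviated together in this measure. With the replicate number as a block 4584 bins had an unadjusted p under 0.05, 1648 higher and 2936 lower, again with 0 calls (smallest adjusted p = 0.06 by limma). The block on the 0.25 h and 1 h libraries alone gave 62 calls. The libraries did not overlap in 6150 bins (22.2%) that were lower and 3592 bins (12.9%) that were higher, but with median-of-ratios scaling in 4861 and 4904. The counts by region that follow were not recomputed with that scaling. On chr19, 289 of 508 bins were lower in this sense and 13 were higher, and on chr22 it was 174 and 4 of 320. On chr4, 147 of 1871 bins were lower and 487 higher. Near chromosome ends 306 of 754 bins were lower and 28 higher. Without 0.25 h replicate 1 the adjusted test called 2628 bins.

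The lowest p belonged to chr19:11700001-11800000 (19p), with 1470 and 771 contacts to other bins at 0.25 h and 1861 and 1316 at 1 h. Scaled to the library, its log2 coverage was 3.15 and 3.10 at 0.25 h against 3.38 and 3.42 at 1 h. The bin chr21:46100001-46200000 (21q) had a log2 coverage of 3.97 and 3.89 against 4.12 and 4.11. The bin chr14:105300001-105400000 (14q) had 2.24 and 2.21 against 2.58 and 2.504. All were lower at 0.25 h with no overlap, and their adjusted p by limma was 0.418, 0.452 and 0.452.

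Distance decay was shallower at 0.25 h between 0.5 and 10 Mb. The slope of log10 contact frequency on log10 distance was -1.25 and -1.24 at 0.25 h and -1.27 in each replicate at 1 h, a difference of 0.0225 (-1.245 ± 0.0065 against -1.268 ± 0.0026, SD, n = 2, exact permutation p = 0.333). Over 1 to 30 Mb the groups overlapped, with a difference of 0.00185 (exact permutation p = 0.667). The share of off-diagonal cis contacts under 1 Mb was 55.7% and 54.9% at 0.25 h and 56.4% and 55.8% at 1 h, a difference of -0.793 percentage points with no overlap. The difference was -0.431 without 0.25 h replicate 2 and -0.521 without 1 h replicate 1. Under 200 kb it was 21.3% and 20.8% against 21.5% and 21.1%. The groups overlapped, while within each replicate 0.25 h was lower.

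Resolved by distance, 0.25 h libraries held smaller shares of off-diagonal cis contacts at short range and larger shares at middle range. Within each replicate they also held smaller shares at the longest range, where the groups overlapped. Self contacts, left out of these shares, were 37.9% and 41.0% of autosomal cis contacts at 0.25 h against 36.7% in each 1 h library. A larger middle-range share of off-diagonal contacts therefore need not be a larger share of all cis contacts. Same-numbered replicates deviated together in these shares (correlations of 0.842 to 0.963 over 6 pairs of times), so the replicate number was also fitted as a block. The labels name no pairing across times, and replicate 1 was deeper than replicate 2 at every time. Whether depth lies behind the shared deviation was not tested. The correlations come from these same libraries, so p-values of the blocked fit take the pairing as given. Without the block, limma called 0 of 17 distance classes (0%), with 4 at an unadjusted p under 0.05. With the replicate number as a block, 14 of 17 (82.4%) passed, 6 higher and 8 lower at 0.25 h. The shares of 1 library sum to a fixed total, so classes cannot move independently.

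Among these off-diagonal shares, those of the middle range were higher at 0.25 h by the most. Pairs 4 to 6.3 Mb apart made up 5.02% and 5.11% of off-diagonal cis contacts at 0.25 h against 4.84% and 4.89% at 1 h. The log2 difference was 0.06 (adjusted p = 0.000246 in the blocked limma fit and 0.139 in limma without the block). Pairs 6.4 to 9.9 Mb apart made up 4.39% and 4.47% against 4.24% and 4.30%. Pairs 2.6 to 3.9 Mb apart made up 5.38% and 5.46% against 5.23% and 5.27%. The groups were apart in all 3 of these classes, which had the largest log2 differences.

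At short range, pairs 0.2 Mb apart made up 9.09% and 8.99% at 0.25 h against 9.25% and 9.16% at 1 h (log2 difference -0.03). Pairs 0.4 to 0.6 Mb apart made up 11.9% and 11.8% against 12.1% in each 1 h library (-0.02). At the longest range the log2 differences were among the lowest: -0.04 for pairs 158.4 to 248.5 Mb apart and -0.03 for pairs 99.9 to 158.3 Mb apart, the latter not called (adjusted p = 0.0636 in the blocked fit). In the first of these classes the share was 0.147% and 0.155% against 0.152% and 0.159%, so the groups overlapped unless replicates were paired. Beyond 10 Mb, in the range up to 100 Mb, decay was steeper at 0.25 h, with slopes of -1.52 and -1.51 against -1.50 and -1.49.

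**Figure D3:**
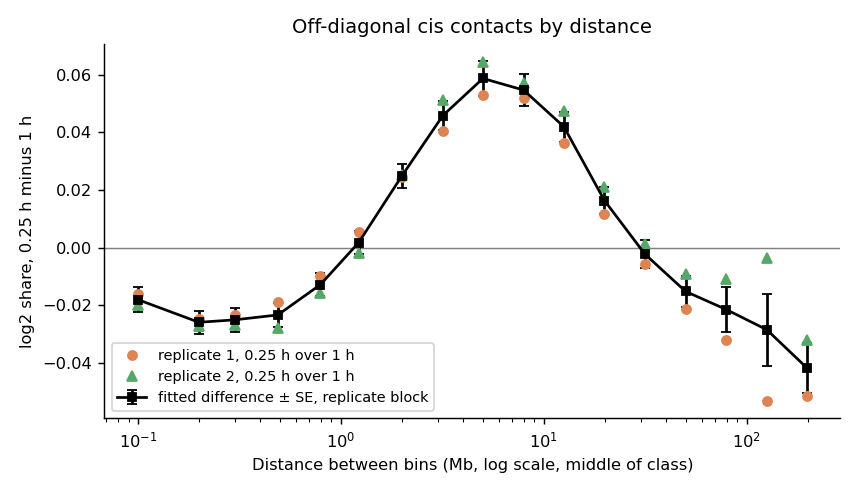
Log2 difference between 0.25 h and 1 h in the share of off-diagonal cis contacts, for 17 distance classes of the autosomes on a logarithmic distance axis. Squares are the fitted difference with its SE from the fit with the replicate number as a block, circles are replicate 1 and triangles replicate 2. Both replicates lie below 0 between 0.1 and 0.9 Mb and above 0 between 1.6 and 25 Mb, with the highest value, 0.06, at 4 to 6.3 Mb.

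The second run at 20 kb placed the change in more detail. For neighbouring 20 kb bins the share of off-diagonal cis contacts was 17.3% and 16.8% at 0.25 h and 17.2% and 16.7% at 1 h. The groups overlapped, while within each replicate 0.25 h was higher, by 0.0475 and 0.0365 percentage points. From 0.08 to 0.78 Mb the groups were apart and lower at 0.25 h, and from 2 to 12.6 Mb they were apart and higher.

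The shallower slope was seen on all 23 chromosomes. In a limma fit of the slope per chromosome, chosen after the data were seen, 23 of 23 were called higher, that is shallower, at 0.25 h (100%), by 0.0188 on chr21 to 0.0264 on chr14. The 23 chromosomes share their libraries, so these calls are not independent and the count says less than 23 separate tests would. The largest differences were on chr14, chr15 and chr20 and the smallest on chr21, chr13 and chrX. On chr19, which decays most steeply, the slope was -1.39 in each 0.25 h library and -1.41 and -1.42 at 1 h. On chrX, which decays least steeply, it was -1.19 in each against -1.21 and -1.20. Without 0.25 h replicate 2, 0 of 23 passed, though the difference was still above 0 on all 23, from 0.0152 on chr4 to 0.0232 on chr14.

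Pairs of both compartment classes shared the change of slope. Between class 1 bins the slope was -1.17 in each 0.25 h library and -1.19 in each 1 h library. Between class 2 bins it was -1.22 and -1.21 against -1.24 in each. Between a class 1 and a class 2 bin it was -1.26 in each 0.25 h library and -1.29 and -1.28 at 1 h. These mixed pairs made up 19.9% and 20.4% of off-diagonal cis contacts at 0.25 h and 19.6% and 19.8% at 1 h.

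Contacts across the centromere did not separate the groups as a share of cis contacts, with 2.65% and 2.76% between arms at 0.25 h and 2.72% and 2.79% at 1 h. Among pairs over 20 Mb apart, 27.6% and 27.8% joined the arms at 0.25 h and 28.0% and 28.2% at 1 h, with no overlap. This cut sets a smallest distance only. Distances of pairs within and between arms were not matched, so the share also depends on distance decay beyond the cut.

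Compartments were weaker at 0.25 h. Compartment strength, the observed over expected contact frequency within the extremes of each class divided by that between them, was 2.15 and 2.12 at 0.25 h and 2.23 and 2.24 at 1 h. It was lower by 0.105 at 0.25 h, with no overlap (2.13 ± 0.0182 against 2.24 ± 0.00824, SD, n = 2, exact permutation p = 0.333), and by 0.0866 within replicate 1 and 0.124 within replicate 2. Most of this lay between the classes. Observed over expected between class 1 and class 2 was 0.542 and 0.549 at 0.25 h against 0.523 and 0.521 at 1 h. Within class 1 it was 1.18 in each 0.25 h library and 1.19 in each 1 h library, and within class 2 it was 1.14 in each against 1.15 in each.

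The difference was present at every distance examined. For bins under 2 Mb apart the strength was 2.19 and 2.14 at 0.25 h and 2.24 in each 1 h library. From 2 to 10 Mb it was 2.04 and 2.01 against 2.12 and 2.13. From 10 to 40 Mb it was 2.93 and 2.88 against 3.09 and 3.11, and over 40 Mb it was 4.88 and 4.77 against 4.99 and 5.02. The groups were apart in all 4 ranges. Between chromosomes, the preference for the same class was 0.594 and 0.568 at 0.25 h and 0.598 and 0.60 at 1 h (log2), where replicate 2 accounted for most of the difference.

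By chromosome, limma called 20 of 23 (87.0%) lower in log2 compartment strength at 0.25 h and none higher. Chr20 changed most, with a strength of 2.65 and 2.52 at 0.25 h against 2.76 and 2.87 at 1 h, a log2 difference of -0.12. Chr14 and chr1 followed, with -0.09 each. Chr1, the longest chromosome, had a strength of 2.38 and 2.36 against 2.499 and 2.53. The 3 highest log2 differences were on chr19, chr22 and chr13. Chr19 had a strength of 2.02 and 2.13 at 0.25 h against 2.07 and 2.05 at 1 h, and chr22 had 1.89 and 1.86 against 1.86 and 1.88. On both the groups overlapped, and the log2 differences were 0.01 and 0.00177. Their sign was not stable: without 0.25 h replicate 2 it turned on chr19 (-0.03), and in thinned libraries it turned on chr22 (-0.03). The strength of chr22 was also little different at 12 h, at 1.92 and 1.90. Its classes came from the second eigenvector, with 47 bins in class 1 and 19 in class 2. Chr13 had 2.01 and 1.98 against 2.07 and 2.02, a log2 difference of -0.04 outside the threshold (adjusted p = 0.0501), and in the first run alone it was 0.04. Since the 23 chromosomes share their libraries and 1 pooled spread, the count says less than 20 separate tests would; the first run alone, which is shallower, gave 8.

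**Figure D4:**
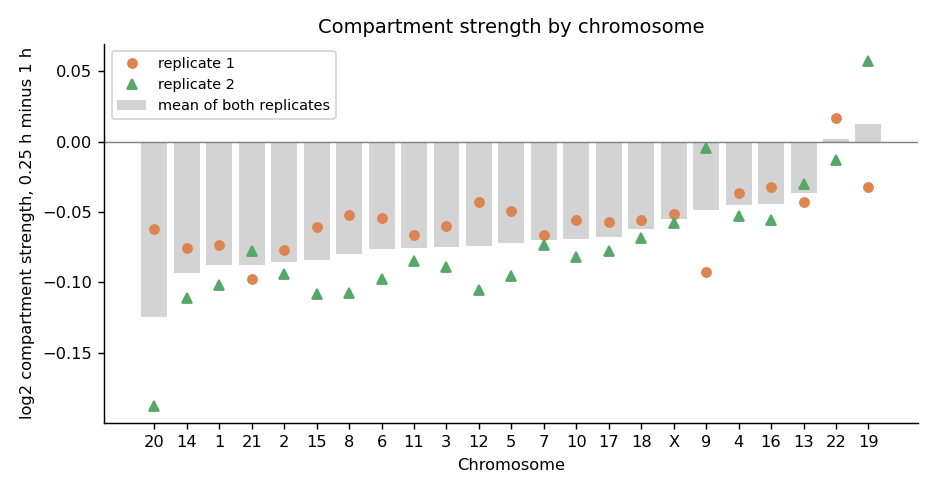
Log2 compartment strength at 0.25 h minus 1 h on 23 chromosomes, in ascending order. Bars are the mean of both replicates, circles replicate 1 and triangles replicate 2. Both replicates lie below 0 on every chromosome but chr22 and chr19, and chr20 is lowest, at -0.12.

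Single 500 kb bins were compared by their preference, the log2 of their contacts over expectation with class 1 less that with class 2, over pairs more than 2 Mb apart. The mean preference of 2989 class 1 bins was 0.694 and 0.693 at 0.25 h and 0.728 and 0.737 at 1 h. That of 2604 class 2 bins was -0.644 and -0.634 at 0.25 h and -0.676 and -0.670 at 1 h. Both classes thus lay nearer to 0 at 0.25 h. Over all 5593 bins, both 0.25 h libraries lay below both 1 h libraries in 1311 (23.4%) and above in 1188 (21.2%). In class 1 the counts were 1128 bins below (37.7%) and 203 above (6.79%), and in class 2 they were 183 below (7.03%) and 985 above (37.8%).

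By limma, 6 of 5593 bins (0.107%) were called, all with a higher preference for class 1 at 0.25 h. In 5 of them the bin belonged to class 2 and was less strongly averse to class 1 at 0.25 h. The bin chr12:82000001-82500000 (12q) had a preference of -1.02 and -0.95 at 0.25 h against -1.24 and -1.22 at 1 h (adjusted p = 0.00477). The bin chr19:28000001-28500000 (19q, beside the centromere) had -0.96 and -0.97 against -1.18 and -1.23 (adjusted p = 0.00477 by limma). Self contacts inside its 100 kb bins were 47.7% and 53.0% of their contacts at 0.25 h against 45.7% and 47.2% at 1 h. In the shallower first run alone the preference difference of this bin had the opposite sign (-0.0748). The bin chr19:32000001-32500000 (19q) had -0.66 and -0.68 against -0.87 and -0.91, and chr12:84500001-85000000 (12q) had -0.89 and -0.84 against -1.06 and -1.11. The adjusted p of these was 0.0481 and 0.0218 by limma. The bin chr20:13000001-13500000 (20p), named though it was the smallest of the 6, had -0.75 and -0.71 against -0.93 in each 1 h library.

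The largest difference was in a class 1 bin, chr9:15000001-15500000 (9p), with a preference of 1.62 and 1.19 at 0.25 h against 0.78 and 0.64 at 1 h (log2 difference 0.70, SE 0.096, adjusted p = 0.00477 by limma). Classes on chr9 and chr22 came from the second eigenvector, and on the other chromosomes from the first. The 0.25 h libraries of this bin differed from each other by more than those of the other called bins. At 3 h it had 1.12 and 1.26 and at 12 h 1.23 and 1.29, all above the 1 h values. Its direction was opposite to the mean of class 1 bins, which was lower at 0.25 h. Leaving out 1 h replicate 2 gave 0 calls over all bins and leaving out 0.25 h replicate 1 gave 102, so the number of calls depends on single libraries. With the replicate number as a block 21 bins were called, though the numbers did not pair the libraries in this measure.

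Trans contacts between chromosome pairs differed little. By limma on observed over expected contacts, 0 of the pairs of 23 chromosomes were called (0%), and 35 (13.8%) had an unadjusted p under 0.05, 15 (5.93%) higher and 20 (7.91%) lower. The lowest p belonged to chromosomes 5 and 19, with a log2 observed over expected of 0.46 and 0.48 at 0.25 h against 0.42 and 0.44 at 1 h. Chromosomes 13 and 15 had -0.14 in each 0.25 h library against -0.17 and -0.16, and chromosomes 14 and 22 had -0.30 in each against -0.26 in each. The adjusted p was 0.249 for each of these by limma. Over the 10 pairs among chromosomes 16, 17, 19, 20 and 22 the mean was 0.560 and 0.550 at 0.25 h and 0.580 and 0.574 at 1 h, with no overlap. Over the 6 pairs among chromosomes 4, 5, 13 and X it was -5.27e-05 and -0.00262 against 0.00688 and 0.0107. Over the 20 pairs of 1 chromosome from each set it was -0.178 and -0.162 against -0.185 and -0.183. At 0.25 h, contacts within each set were thus slightly lower and contacts between the sets slightly higher, with no overlap in any of the 3 comparisons. The expectation was fitted to the chromosome totals of each library, so these 3 comparisons cannot move independently.

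Insulation gave no calls between the times. The score is the log2 contact frequency across a bin, in a square of 500 kb to either side, over the chromosome's mean, so that a lower score means a stronger boundary. All libraries were thinned to the same 25644918 cis contacts within 2 Mb. Boundaries numbered 2871 and 2844 at 0.25 h and 2888 and 2848 at 1 h, and the groups overlapped (difference -10.5, exact permutation p = 0.667). Without balancing the direction turned, with 3379 and 3397 against 3366 and 3353 and no overlap (difference 28.5, exact permutation p = 0.333). Of 2644 boundaries found in both 0.25 h libraries, 2476 lay within 100 kb of 1 found in both 1 h libraries, which is 93.6% of that list and 93.4% of the 2650 at 1 h. Replicates of one time shared between 91.8% and 93.0% of their lists. These figures are not comparable, since the lists of a time were already limited to boundaries found in both of its replicates.

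At 2811 boundaries called in the 3 h and 12 h libraries, which are not in the comparison, the mean score was -0.559 and -0.542 at 0.25 h and -0.566 and -0.556 at 1 h. The groups overlapped (difference 0.0107, exact permutation p = 0.667), while within each replicate 0.25 h was higher, by 0.00775 and 0.0136. The difference between the times was 0.00246 without 0.25 h replicate 2, 0.00539 without 1 h replicate 1 and 0.0189 without 0.25 h replicate 1. Without balancing it was -0.000141. The spread of scores over all bins was smaller at 0.25 h, with SDs of 0.397 and 0.390 against 0.402 and 0.398 (log2), and with no overlap. Without balancing the direction turned, with SDs of 0.785 and 0.782 against 0.775 and 0.768 and no overlap.

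The strongest boundaries differed most in absolute terms. In the strongest 937, the mean score was -0.970 and -0.943 at 0.25 h and -0.985 and -0.970 at 1 h, and the groups overlapped. In the weakest 937 it was -0.188 and -0.180 against -0.190 and -0.185. At the 682 boundaries between a class 1 and a class 2 segment it was -0.775 and -0.753 against -0.788 and -0.777, and the groups were apart. At the 1426 within class 1 it was -0.485 and -0.466 against -0.490 and -0.478, with overlap. At the 703 within class 2 it was -0.498 and -0.491 against -0.506 and -0.4997, without overlap. In each of these groups replicate 1 had the lower score at both times.

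**Figure D5:**
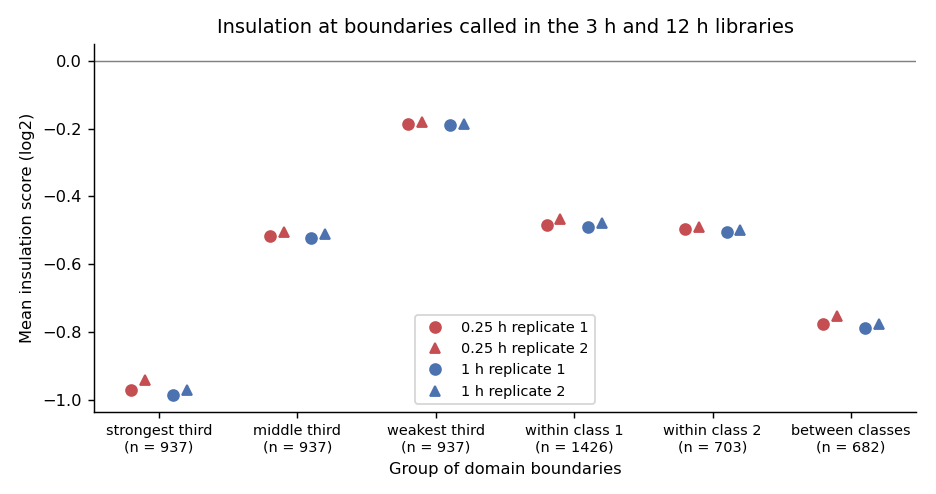
Mean insulation score (log2) of boundaries called in the 3 h and 12 h libraries, grouped by strength and by the classes on either side. Red symbols are 0.25 h and blue symbols 1 h, circles replicate 1 and triangles replicate 2. The strongest 937 lie between -0.985 and -0.943 and the weakest 937 between -0.190 and -0.180.

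By limma, 0 of 2811 boundaries were called (0%), and 160 (5.69%) had an unadjusted p under 0.05, 108 higher and 52 lower at 0.25 h. Over all 27097 bins with a score 0 were called (0%) and 1575 (5.81%) had an unadjusted p under 0.05. The boundary at chr16:5100001-5200000 (16p) had a score of -0.79 and -0.81 at 0.25 h against -1.06 and -1.08 at 1 h. The boundary at chr3:50600001-50700000 (3p) had -1.11 and -0.97 against -1.32 and -1.29. The boundary at chr19:19600001-19700000 (19p) went the other way, with -1.26 and -1.13 against -0.88 and -0.97. These 3 had the lowest p, with an adjusted p of 0.565 each by limma, and the sign of all 3 turned in the shallower first run alone.

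Among all bins, the lowest p belonged to chr7:5900001-6000000 (7p), with scores of 0.19 and 0.11 at 0.25 h against -0.21 and -0.16 at 1 h. It held 935 and 526 contacts with other bins at 0.25 h and 978 and 702 at 1 h. The bin chr17:42600001-42700000 (17q) had -0.13 and -0.10 against 0.12 and 0.16. The bin chr7:44800001-44900000 (7p) had 0.30 and 0.27 against 0.06 and 0.03, a difference whose sign turned in the first run alone (-0.0421). The groups were apart in all 3, and their adjusted p was 0.111, 0.225 and 0.225 by limma.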

How the data were processed

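Hi-C contacts of K562 nuclei were analysed in 4 libraries, with 4 further libraries (3 h and 12 h) used for classes, boundaries and the estimate of spread. The submitters' processing notes name HiC-Pro 2.11.1, Bowtie2 2.3.4.1 and build hg19; the order and settings of these steps are not given in the sources used here. The deposited values are a balanced contact signal for pairs of bins (50 kb in the first run, 20 kb in the second), made by the authors separately for each file. Their balancing removes differences of coverage between bins, so whole contacts were recovered from the deposited signal, as a whole number times a factor for each bin. All values came within 0.01 of a whole number. In simulated data 100% of 804966 pairs were recovered.

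Contacts were added over both runs in 100 kb bins of chromosomes 1 to 22 and X. Bins at least 50% present in all files were used, 27756 in all. Between-bin measures left out the 100 kb diagonal, which is called off-diagonal here. Log2 values used a pseudocount of 0.5. Tests across features used limma 3.58.1 in R 4.3.3 on all 8 libraries, with Benjamini-Hochberg adjustment at 0.05, since a signal is no count and the recovered contacts were compared as log2 shares. Compartment classes came from 500 kb bins (2989 in class 1 and 2604 in class 2, from the sum of the 3 h and 12 h libraries, balanced), taking for each chromosome whichever of the first 3 eigenvectors best followed contacts with chromosomes 16, 17, 19, 20 and 22 relative to 4, 5, 13 and X. The plan named the first, and chr9 and chr22 used the second. Strength used the outer 20% of bins at either end. A bin's preference was taken from summed rather than averaged observed over expected values, a change from the planned form. On simulated data 100% of changes of 0.2 (log2) were recovered for bin coverage, 26% for centred self contacts and 97% for insulation, and 100% of changes of 0.5 in each. In the real fits such differences went uncalled: -0.31 for coverage (chr14:105300001-105400000), 0.33 for insulation (chr7:5900001-6000000) and -0.60 for centred self contacts (chr16:84300001-84400000). The simulated recovery therefore cannot be carried over to these libraries, and absence of calls does not show that no bin changed.

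Called bins with non-overlapping libraries were named by size, up to 5 in each direction, or otherwise the 3 lowest p; chromosomes, arms and distance classes were named by the 3 highest and 3 lowest. The groups compared and these lists were chosen with earlier results of these data known. Same-numbered replicates deviated together, with all 6 correlations of deviations over 0.1, for distance classes and for bin coverage (0.224 to 0.465). The other measures so correlated did not meet this, and single values such as the mean boundary score were not correlated. The labels name no pairing of replicates across times, and replicate 1 was deeper than replicate 2 at every time. The decay slope per chromosome, the self share centred on the median chromosome and the replicate block on 4 libraries were added after seeing the data. Alternatives covered sequencing run, bin size, filters, scaling, depth, window, class source, replicate block and each library left out.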

Additional observations from a re-analysis of the deposited data

How the results depend on the processing

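Of 583 alternative values, 284 of the named features and 162 of the main values kept their direction and side of the threshold. Of the named features 13 reversed, 36 lost and 35 gained a call, and of the main values 8 reversed, 17 were weaker and 28 stronger. The cause of the changes was not tested. Leaving out 1 library at a time gave 0 to 18268 calls for self contacts per bin, 0 to 9091 for the same measure centred on the genome median, 0 to 2628 for bin coverage and 0 to 102 for compartment preference. It gave 0 to 23 calls for chromosome self share and for chromosome decay slope, 0 to 4 for chromosome coverage, 0 to 3 for chromosome pairs and 0 to 1 for insulation per bin. It moved the class 1 share difference between -0.561 and 0.508 percentage points and the boundary number difference between -30.5 and 9.5.

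The replicate block on all 8 libraries gave 14 distance classes, 21 preference bins and 0 chromosomes for self share. With the replicate block on the 0.25 h and 1 h libraries alone there were 67 calls for self contacts per bin, 308 centred, 62 for bin coverage, 0 for chromosome self share, 8 for chromosome coverage, 12 for distance classes, 59 for preference, 36 for insulation and 16 for boundaries. Fitting these 4 libraries without the block gave 0 for chromosome self share, 7 for chromosome coverage and 1 for preference. The block on 8 libraries changed no other count of adjusted calls by more than 1.5 times.

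The first run alone gave 13 calls for self contacts per bin, 1 for chromosome self share, 7 for chromosome coverage, 1 for preference, 8 for chromosome strength and 1 for insulation. Centring on the median chromosome gave 0 for self share. Including the diagonal gave 0 for chromosome coverage and 10 for distance classes, and trans contacts alone gave 0 for chromosome coverage and 2 for bin coverage. Thinning gave 3 for preference. A window of 300 kb gave 1 for insulation and 2 for boundaries, no balancing gave 2 for insulation, and unthinned depth gave 1 for boundaries. The boundary number difference turned to 1.0 in the second run, 6.0 with the 300 kb window and 28.5 without balancing, and that of the mean boundary score to -0.000141 without balancing, a setting chosen for both after seeing the data.

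Among named features, the first run turned the preference of chr19:28000001-28500000 (-0.0748), the insulation of chr7:44800001-44900000 (-0.0421) and the boundaries at 16p (-0.0351), 3p (-0.0457) and 19p (0.00448). It also turned the strength of chr22 (-0.0143) and chr13 (0.0378). Without balancing, the bin on 17q turned (0.000178). With the diagonal included chr19 coverage turned (0.00677). With single libraries left out, the strength difference of chr19 ran from -0.0264 (without 0.25 h replicate 2) to 0.0516. That of chr22 ran from -0.00687 (without 0.25 h replicate 1) to 0.0104, was -0.0048 without 1 h replicate 1, and was -0.0257 when thinned.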
